A study of Homo sapiens with 12 samples.

Results

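FA2H and 6 of its neighbours on the long arm of chromosome 16 (GLG1, RFWD3, MLKL, WDR59, ZNRF1 and LDHD) were followed through CRISPR activation and CRISPR interference of LTR5HS in human embryonal carcinoma cells. The 7 genes were taken by name from the deposited table of read counts, which lists 26641 genes, and all 7 passed the filter on low counts in every comparison. RNA was sequenced from 6 lines of NCCIT, an established embryonal carcinoma line, with 2 replicate libraries per line and 12 libraries in all. The labels call the replicates independent and biological. Every line carried a doxycycline-inducible fusion of catalytically inactive S. pyogenes Cas9 with VPR, an activation domain (CRISPRa), or with KRAB, a repression domain (CRISPRi), and each was induced for 4 days. Each line also expressed 1 of 3 guide arrays, and the lines were drug-selected after transposon integration.

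The LTR5HS Sp array holds 12 guides against LTR5HS, the long terminal repeat of the HERVK endogenous retrovirus, on a scaffold from S. pyogenes that the fusion can bind, and its libraries are called recruitment. The LTR5HS Sa array carries a scaffold from S. aureus, and the nontarget Sp array a fitting scaffold with no genomic target. Libraries with these arrays were pooled as control, which gave 2 recruitment and 4 control libraries per fusion. The fusion and its parental line cannot be told apart, since each fusion was introduced into its own line. Each pairing of fusion and array was likewise a single line, so within a fusion the array and the line cannot be told apart. No p-value below measures the spread between independently made recruitment lines.

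FA2H, the gene next to the guide sites, encodes fatty acid 2-hydroxylase, which adds a hydroxyl group to the fatty acids that are then built into ceramides and, in myelin, into galactosylceramide. The neighbours act elsewhere in the cell. WDR59 is a subunit of GATOR2, a complex that relays amino acid supply to mTORC1. MLKL is the pseudokinase that carries out necroptosis. RFWD3 and ZNRF1 are ubiquitin ligases, the former acting with RPA in DNA repair. GLG1 is a membrane glycoprotein of the Golgi, and LDHD is the mitochondrial dehydrogenase of D-lactate. Long terminal repeats hold promoter and enhancer sequence, and a repeat may act on genes at some distance.

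The guide sequences were searched in the genome (GRCh38/hg38, both strands, no mismatch, followed by an NGG PAM, the short motif that Cas9 requires). Within 1 Mb on either side of the FA2H start, 6 matches were found, from 6 different guides, and all lay in a single stretch of 492 bases at chr16:74799544-74800035. No annotated gene of GENCODE 44 overlapped that stretch, which lay between FA2H and WDR59. These 6 sites are shown because they are where the array can pair near the 7 genes, each read 5′ to 3′ on the strand of the guide with the PAM in capitals.
LTR5HS-1 (chr16:74799544-74799562, minus strand): tactaagggaactcagAGG
LTR5HS-2 (chr16:74799772-74799790, minus strand): aaaaccgccttagggcTGG
LTR5HS-9 (chr16:74799835-74799853, plus strand): gacattccattgcccaGGG
LTR5HS-8 (chr16:74799924-74799942, minus strand): taaagggtctgtgctgAGG
LTR5HS-4 (chr16:74799937-74799955, minus strand): agcccgacacccgtaaAGG
LTR5HS-7 (chr16:74800017-74800035, plus strand): aaccttggacaataccTGG

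The genome held 648 such clusters with at least 2 different guides within 1000 bp gaps, and 132 of them (20.4%) had 6 or more guides. A match is a place where the guide can pair and says nothing of occupancy. The annotated start of FA2H lay 25.0 kb from the centre of the cluster, which was upstream of the gene. The starts of the other 6 lay farther away, at 98.9 kb for MLKL, 133 kb for RFWD3, 185 kb for WDR59, 193 kb for GLG1, 199 kb for ZNRF1 and 317 kb for LDHD. FA2H, MLKL, RFWD3 and GLG1 lie on one side of the cluster and WDR59, ZNRF1 and LDHD on the other. The next cluster on the side of LDHD, with 5 guides, lay 1016 kb beyond, past LDHD.

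The positions of the genes on chromosome 16 (GENCODE 44, GRCh38) are as follows. GLG1 spans chr16:74447427-74607144, RFWD3 spans chr16:74621399-74666877 and MLKL spans chr16:74671855-74700960, all on the minus strand. FA2H spans chr16:74712955-74774831 and WDR59 spans chr16:74871362-75000173, also on the minus strand. ZNRF1 spans chr16:74999024-75110994 on the plus strand, and LDHD spans chr16:75111860-75116780 on the minus strand. In that annotation the exons of FA2H, MLKL, RFWD3, GLG1 and LDHD overlapped no exon of another gene. WDR59 shared 0.776% of its exonic bases with ZNRF1. For ZNRF1, 19.7% of exonic bases were shared with WDR59 or with another annotated gene. The library preparation did not mark strand, so reads of such overlapping genes cannot be told apart.

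None of the 12 guides matched the promoter of FA2H, of GLG1, RFWD3, MLKL, WDR59 or ZNRF1, or of any of the 35116 promoters in the RefSeq table used here (GRCh38.p14, 250 bases before to 50 after each start). LDHD has no entry in that table. The FA2H promoter held the octamer ATGCAAAT, searched on both strands, which begins 61 bases before the annotated start. It was present in 1.77% of all promoters listed there, and not in the other 5 matched promoters. The 100 bases from 120 to 21 before the start are shown, since FA2H is the gene whose level moved with recruitment, with the octamer in capitals.
FA2H upstream sequence (chr16:74774841-74774940, minus strand): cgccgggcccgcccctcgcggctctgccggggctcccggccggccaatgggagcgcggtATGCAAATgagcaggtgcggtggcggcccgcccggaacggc
The octamer was chosen after the sequence had been seen, and a match is no evidence of binding.

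Library totals ranged from 13601701 to 69797411 counts with a median of 18256928. Replicate 2 of nontarget Sp with dCas9-KRAB was the deepest, at 2.81 times the next. Levels are given as CPM, a gene's count scaled to 1000000 counts of the TMM-normalized library. A floor of 3 counts corresponded to 0.0455 to 0.233 CPM. Differences were tested with edgeR's quasi-likelihood test, and every adjusted p below is its p after Benjamini-Hochberg adjustment over all genes tested. A gene is called where the adjusted p is under 0.05. Fold changes are recruitment over control, on a log2 scale unless a fold is named. All 8 listed markers of embryonal carcinoma cells exceeded 10 CPM in every dCas9-KRAB library. In every dCas9-VPR library 5 of 8 did so, the exceptions being NANOG (from 1.05 CPM), TDGF1 (from 9.04 CPM) and POU5F1 (from 9.86 CPM). NANOG and TDGF1 were among those that differed most between the fusions, as given below with the control lines.

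FA2H rose with CRISPRa and fell with CRISPRi. With dCas9-VPR, FA2H stood at 234 and 277 CPM in the recruitment libraries, against 11.2 and 9.14 CPM with LTR5HS Sa and 7.38 and 7.52 CPM with nontarget Sp. Both recruitment libraries lay far above all 4 controls, and the groups did not overlap. The fold was 29.0 (log2 4.86, SE 0.18, 95% confidence interval 4.45 to 5.27, adjusted p = 2.56e-06). In bulk RNA, more cells that express a gene and more RNA per cell cannot be told apart, nor fewer cells and less RNA per cell. Among the 16271 genes tested, 122 had a larger log2 fold change.

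With dCas9-KRAB, FA2H stood at 2.19 and 1.83 CPM in the recruitment libraries (39 and 27 counts), against 36.5 and 37.9 CPM with LTR5HS Sa and 24.0 and 23.6 CPM with nontarget Sp. Here both recruitment libraries lay below all 4 controls, again without overlap, and above the 3-count floor. The level was 14.98-fold lower, with an interval from 9.40 to 23.9 (log2 -3.91, SE 0.30, adjusted p = 8.37e-05). Only 35 of 15520 genes tested had a lower log2 fold change. The effect of recruitment differed between the fusions by 8.76 on the log2 scale (SE 0.38, adjusted p = 7.27e-09 for the interaction). FA2H is a gene that the study itself picked out from these libraries, so its direction here is not independent evidence. A count per gene sums the reads of all its transcripts and does not tell from which start they began. From its RNA-seq reads the study reported chimeric transcripts of LTR5HS and FA2H, spliced RNAs that start in or near the repeat. Their share of the FA2H counts was not examined here.

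**Figure D1:**
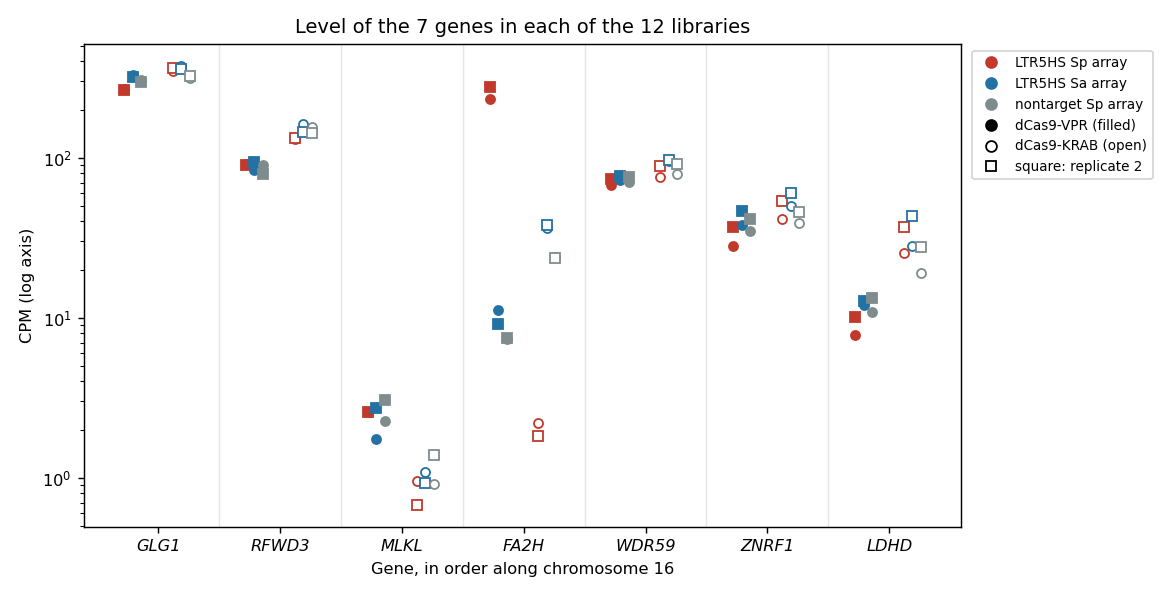
Level of each of the 7 genes in each library, in CPM on a log axis, with genes in their order along chromosome 16. Colours give the array, filled symbols dCas9-VPR and open symbols dCas9-KRAB, and circles and squares replicates 1 and 2. FA2H runs from 1.83 CPM (dCas9-KRAB recruitment) to 277 CPM (dCas9-VPR recruitment), while for each of the other 6 the recruitment libraries lie near the controls of the same fusion.

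None of the other 6 genes passed the threshold with either fusion. Thus 1 of 7 was called with CRISPRa, where 28.0% of all genes tested were called, and 1 of 7 with CRISPRi, where 2.77% were. By direction, CRISPRa gave 15.7% of all genes tested higher and 12.3% lower, and CRISPRi gave 0.831% higher and 1.94% lower. The median log2 fold change of the 7 was -0.06 with CRISPRa, beside -0.02 for all genes tested, and -0.14 with CRISPRi, beside 0.00060. The interaction was called for 1 of 7, beside 21.0% of genes tested (11.5% with a higher and 9.53% with a lower effect of dCas9-VPR). A p above the threshold does not show that a level stayed the same, so the intervals of the 6 are given one by one.

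WDR59, on the far side of the cluster from FA2H, stood at 67.7 and 73.5 CPM with dCas9-VPR recruitment and between 70.6 and 76.5 CPM in the controls. The log2 fold change was -0.06 (95% interval -0.30 to 0.17, adjusted p = 0.682). With dCas9-KRAB it stood at 75.5 and 88.4 CPM against 78.6 to 96.2 CPM. The CRISPRi value was -0.14 (-0.43 to 0.14, adjusted p = 0.674), and the groups overlapped with both fusions. The lower ends of these intervals correspond to falls of 1.23-fold and 1.34-fold.

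MLKL, the nearest neighbour of FA2H on the same side, had low counts. It had 46 and 48 counts with dCas9-VPR recruitment, or 2.56 and 2.57 CPM, and 1.74 to 3.05 CPM in the controls. Its CRISPRa log2 fold change was 0.07, with an interval from -0.56 to 0.71 (adjusted p = 0.873). With dCas9-KRAB recruitment MLKL had 17 and 10 counts (0.953 and 0.677 CPM), against 0.909 to 1.38 CPM in the controls. The CRISPRi value was -0.42 (-1.21 to 0.36, adjusted p = 0.651). The groups overlapped in both cases, and the lower end of the interval with CRISPRi corresponds to a fall of 2.31-fold.

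Of the ubiquitin ligases, RFWD3 stood at 91.7 and 90.4 CPM with dCas9-VPR recruitment, inside the control range of 79.3 to 93.7 CPM (log2 0.07, -0.17 to 0.31, adjusted p = 0.646). With dCas9-KRAB it stood at 130 and 133 CPM, below all 4 controls (144 to 163 CPM), so the groups did not overlap. That difference, -0.21 on the log2 scale (-0.44 to 0.02), did not pass the threshold, with an unadjusted p = 0.0687 from edgeR and an adjusted p = 0.414. ZNRF1 stood at 27.9 and 37.1 CPM with dCas9-VPR recruitment against 34.7 to 46.5 CPM (log2 -0.30, -0.69 to 0.09, adjusted p = 0.233). With dCas9-KRAB its levels of 41.5 and 54.1 CPM lay inside the control range of 39.0 to 59.8 CPM (log2 -0.02, -0.42 to 0.38, adjusted p = 0.974).

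GLG1, the most abundant of the 7 per length in the controls, stood at 270 and 266 CPM with dCas9-VPR recruitment, below the controls at 297 to 330 CPM. The log2 difference was -0.22 (-0.44 to 0.00015, adjusted p = 0.127). It reached the threshold only when LTR5HS Sa alone served as control (-0.28, adjusted p = 0.0482), and over 15 alternatives the adjusted p ran from 0.0482 to 0.400. With dCas9-KRAB, GLG1 stood at 349 and 365 CPM, inside the control range of 317 to 375 CPM (log2 0.06, -0.18 to 0.29, adjusted p = 0.859).

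LDHD, the most distant of the 7, stood at 7.85 and 10.1 CPM with dCas9-VPR recruitment, below the controls at 10.8 to 13.3 CPM. The log2 difference was -0.44 (-0.85 to -0.03) with an unadjusted p = 0.0400 from edgeR, and the adjusted p = 0.108 did not pass. With dCas9-KRAB the levels of 25.6 and 36.8 CPM lay inside the control range of 19.2 to 43.5 CPM (log2 0.08, -0.54 to 0.71, adjusted p = 0.929). In all, the groups of libraries did not overlap for FA2H, GLG1 and LDHD with CRISPRa, beside 49.9% of all genes tested. With CRISPRi they did not overlap for FA2H and RFWD3, beside 23.3%.

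**Figure D2:**
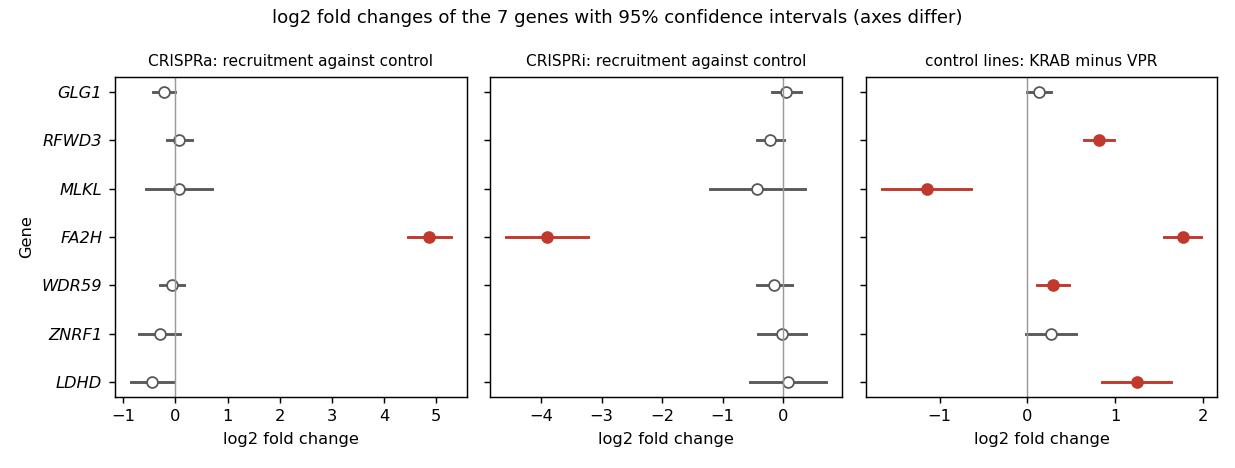
log2 fold changes of the 7 genes with 95% confidence intervals for CRISPRa, for CRISPRi and for control lines of dCas9-KRAB minus those of dCas9-VPR, each on its own axis. Filled red points passed the adjusted threshold of 0.05 and open points did not. FA2H stands apart at 4.86 and -3.91 in the first 2 panels, and FA2H, LDHD, RFWD3, WDR59 and MLKL passed in the last.

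The 17 listed genes farther out in the region served for comparison, and 15 had enough reads to test. With CRISPRa, ZFHX3, a transcription factor of homeodomain and zinc finger type, rose by 0.97 on the log2 scale (adjusted p = 0.000337). TERF2IP, a component of the telomeric shelterin complex, rose by 0.50 (adjusted p = 0.00727, and 0.105 without LTR5HS Sp replicate 2). CHST6, a sulfotransferase of keratan sulfate, fell from 44.9 to 53.6 CPM in the controls to 13.3 and 17.9 CPM (log2 -1.61, adjusted p = 0.000224).

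CFDP1, a chromatin protein, was 0.38 lower on the log2 scale (adjusted p = 0.0432). That call was lost without LTR5HS Sp replicate 1 or 2, nontarget Sp replicate 1 or 2, or LTR5HS Sa replicate 2, at adjusted p = 0.201, 0.210, 0.0509, 0.0853 and 0.0607, and also with LTR5HS Sa alone as control (0.0714) or at least 10 counts in every library (0.0505). In all 2 of 15 rose and 2 of 15 fell with CRISPRa, beside 15.7% and 12.3% of all genes tested. The median log2 fold change was -0.02. With CRISPRi edgeR called 0 of 15, beside 2.77% of all genes tested (0 at an unadjusted p under 0.05, and 0 by DESeq2), and the median was -0.08. All 4 called genes had their starts more than 600 kb from the cluster next to FA2H, from 634 kb for CFDP1 to 1752 kb for ZFHX3, which lay on the side of GLG1. The ZFHX3 distance rests on 1 annotated transcript, starting at chr16:73048128. That gene reaches chr16:73891871 towards the cluster, so other starts may lie nearer. The starts of CFDP1, CHST6 and TERF2IP were nearer to the next cluster, at 382, 320 and 168 kb.

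**Figure D3:**
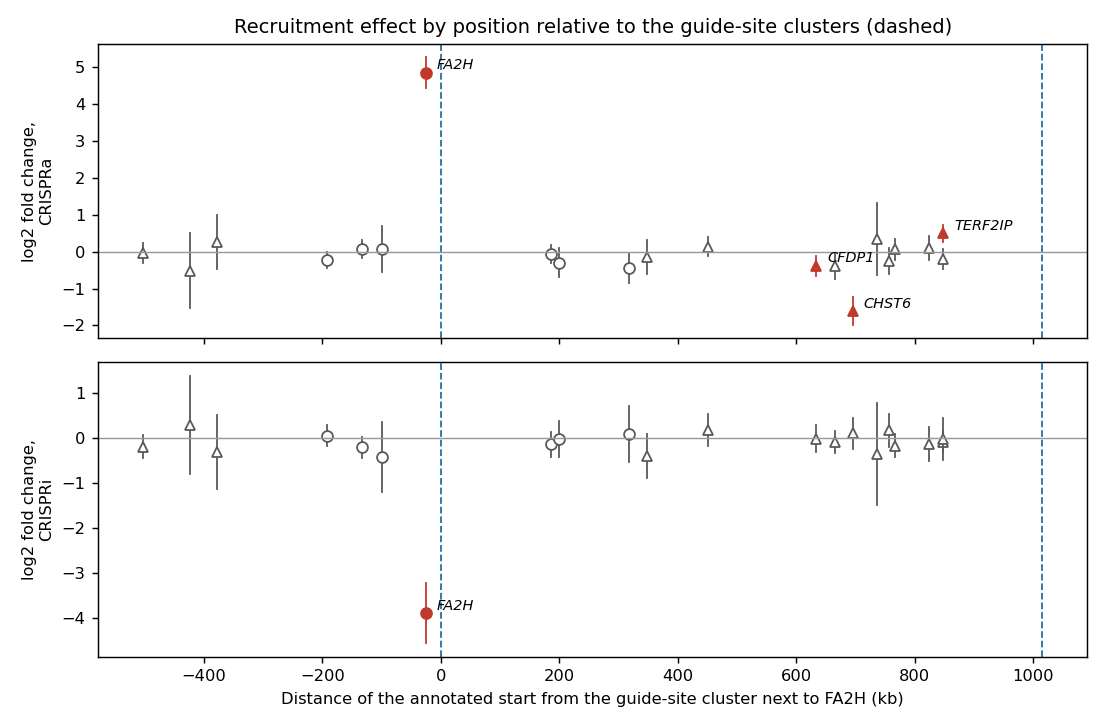
log2 fold change with recruitment (CRISPRa above, CRISPRi below) by distance of the annotated start from the guide-site cluster next to FA2H, in kb, with 95% confidence intervals. Circles are the 7 genes and triangles the genes farther out, red where the adjusted p was under 0.05, and dashed lines are the clusters at 0 and 1016 kb. Distances are negative on the side of GLG1. FA2H, at -25.0 kb, is the point far from a log2 fold change of 0 in both panels, and ZFHX3, at -1752 kb, lies outside the axis.

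The control arrays were also compared with each other. FA2H was higher with LTR5HS Sa than with nontarget Sp in both fusions, by 0.64 on the log2 scale with dCas9-KRAB (adjusted p = 0.0496) and by 0.45 with dCas9-VPR (adjusted p = 0.108). In each fusion both LTR5HS Sa libraries lay above both nontarget Sp libraries. The dCas9-KRAB call stood at the threshold: its adjusted p ran from 0.00757 to 0.302 over the alternatives. It was lost with DESeq2's size factors and on leaving out any of 10 of the 12 libraries, the exceptions being the dCas9-VPR nontarget Sp libraries. With the replicate number as a block, ZNRF1 (log2 0.38, adjusted p = 0.0339) and LDHD (log2 0.61, adjusted p = 0.0242) were called with dCas9-KRAB besides FA2H. With dCas9-KRAB 1 of 7 was called, beside 0.612% of all genes tested (0.312% higher and 0.300% lower with LTR5HS Sa). With dCas9-VPR edgeR called 0 of 7, or 1 at an unadjusted p under 0.05, beside 5.24% of all genes tested (2.15% higher and 3.09% lower). The recruitment effect on FA2H passed the threshold against either array alone, at 4.64 and 5.11 with CRISPRa and at -4.20 and -3.56 with CRISPRi, against LTR5HS Sa and nontarget Sp in turn.

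Levels in the control lines of the 2 fusions differed for 5 of the 7 genes, beside 59.1% of all genes tested (30.3% higher and 28.8% lower with dCas9-KRAB). FA2H was 3.42-fold higher in the dCas9-KRAB controls than in the dCas9-VPR controls (log2 1.77, SE 0.10, adjusted p = 5.24e-08). Its levels were 30.5 ± 7.74 against 8.80 ± 1.76 CPM (SD, n = 4 libraries from both control arrays). These SDs include the gap between LTR5HS Sa and nontarget Sp, at means of 37.2 and 23.8 CPM with dCas9-KRAB and 10.1 and 7.45 CPM with dCas9-VPR. In the dCas9-KRAB controls LDHD was higher by 1.25 (adjusted p = 9.64e-05), RFWD3 by 0.81 (adjusted p = 3.37e-06) and WDR59 by 0.29 (adjusted p = 0.00954, and 0.0506 without dCas9-KRAB nontarget Sp replicate 2). MLKL was 2.22-fold lower (log2 -1.15, adjusted p = 0.00119). GLG1 and ZNRF1, at 0.14 and 0.27, did not pass (adjusted p = 0.0778 and 0.0940). With the replicate number as a block both passed, at 0.0419 and 0.00223, which made 7 of 7.

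The lines themselves differed in marker genes. All 8 embryonal carcinoma markers were higher in the dCas9-KRAB controls, by a median log2 of 1.89, and their summed level was 3799 to 4198 CPM there against 994 to 1882 CPM in the dCas9-VPR controls. NANOG, a pluripotency factor, differed by 5.99 on the log2 scale and TDGF1 by 3.77. Of the mesoderm markers, HAND1 was lower in the dCas9-KRAB controls (log2 -4.41), and the summed level of T, MIXL1 and HAND1 was 6.13 to 17.9 CPM against 151 to 283 CPM. The 4 endoderm markers summed to 0.311 to 1.37 CPM against 3.84 to 6.10 CPM. The 4 trophoblast markers summed to 1.397 to 2.50 CPM against 6.66 to 13.1 CPM, and the 3 neural markers to 2.66 to 4.58 CPM against 2.52 to 4.87 CPM. Of the trophoblast sums, GATA3 alone made 1.16 to 2.28 CPM against 5.91 to 12.4 CPM. Each fusion has its own parental line, so fusion, line and marker state cannot be told apart in the levels of these genes.

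With recruitment, the embryonal carcinoma markers summed to 1067 to 1159 CPM for dCas9-VPR and to 4235 to 4443 CPM for dCas9-KRAB. Of the 8 embryonal carcinoma markers, SOX2 fell with CRISPRa (log2 -1.24, adjusted p = 0.00735) and 0 was called with CRISPRi by edgeR (4 at an unadjusted p under 0.05, and 0 by DESeq2). Of all genes tested, 28.0% were called with CRISPRa and 2.77% with CRISPRi. GATA6, 1 of 2 endoderm markers tested with CRISPRa and too low to be tested with CRISPRi, rose with CRISPRa (log2 1.29, adjusted p = 0.00318). The 4 endoderm markers summed to 9.999 to 10.5 CPM for dCas9-VPR and to 0.677 to 1.18 CPM for dCas9-KRAB. GATA3, the only 1 of 4 trophoblast markers tested, rose with both fusions, by 1.48 (adjusted p = 0.00617) and 1.47 (adjusted p = 0.0259). The 4 trophoblast markers summed to 22.3 to 31.2 CPM for dCas9-VPR and 4.13 to 5.997 CPM for dCas9-KRAB. Of these sums, GATA3 alone made 21.9 to 31.0 CPM and 3.997 to 5.94 CPM, and the other 3 were below 1 CPM in every recruitment library. The SOX2 and GATA3 calls with CRISPRa were lost without LTR5HS Sp replicate 1 (adjusted p = 0.0779 and 0.0704). The GATA3 call with CRISPRi was lost without LTR5HS Sp replicate 1 or 2 or nontarget Sp replicate 2 (0.246, 0.0534 and 0.0819). The mesoderm markers, at 183 to 227 CPM and 11.5 to 24.6 CPM, and the neural markers, at 1.73 to 1.82 CPM and 2.51 to 2.69 CPM, gave no call. The part of these shifts in the FA2H result was not tested.

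**Figure D4:**
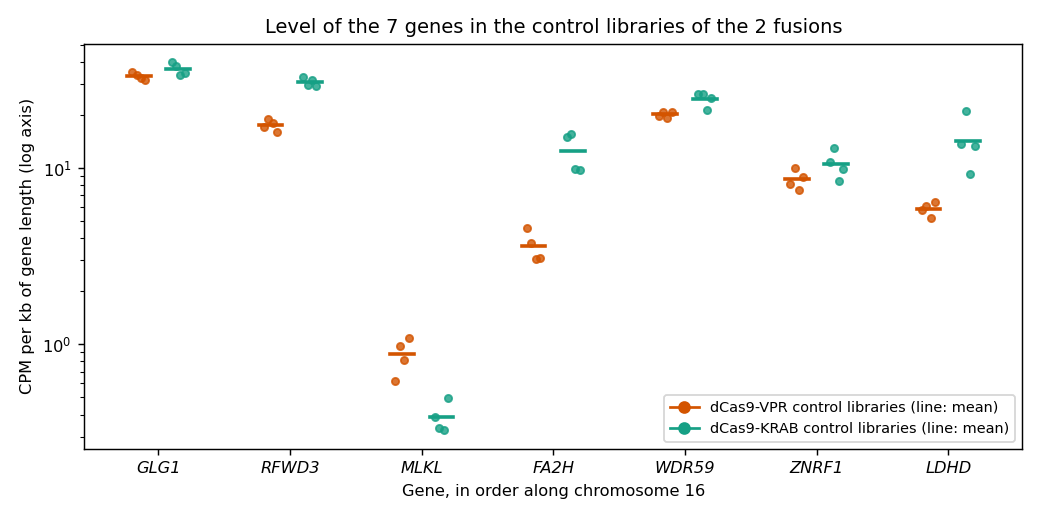
Level of the 7 genes in the 4 control libraries of each fusion, in CPM per kb of gene length on a log axis, with a line at each mean. GLG1 is highest in both fusions (33.1 and 36.4 CPM per kb on average) and MLKL lowest (0.876 and 0.385).

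Per kb of gene length, mean levels in the dCas9-VPR controls fell from GLG1 (33.1 CPM per kb) through WDR59 (20.2), RFWD3 (17.5), ZNRF1 (8.65), LDHD (5.88) and FA2H (3.63) to MLKL (0.876). No pair of neighbours in that order overlapped in its 4 libraries. In the dCas9-KRAB controls the order was GLG1 (36.4), RFWD3 (30.7), WDR59 (24.7), LDHD (14.3), FA2H (12.6), ZNRF1 (10.5) and MLKL (0.385), and the ranges of LDHD, FA2H and ZNRF1 overlapped. With recruitment FA2H moved to first place with dCas9-VPR, at 105 CPM per kb beside 28.4 for GLG1. With dCas9-KRAB it moved to sixth of 7, at 0.827 CPM per kb beside 0.292 for MLKL.

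The enzymes around FA2H in sphingolipid synthesis were followed as a list of 21 genes, of which 19 were tested with CRISPRa and 17 with CRISPRi. With CRISPRa 2 rose and 5 fell, beside 15.7% and 12.3% of all genes tested, and the median log2 fold change was -0.09. SPTLC2, a subunit of serine palmitoyltransferase, which makes the first committed step, rose by 1.72 on the log2 scale (adjusted p = 1.04e-05). Its levels were 222 and 250 CPM against 69.3 to 74.5 CPM in the controls. The groups did not overlap, which held for 49.9% of all genes tested with CRISPRa. CERS4, a ceramide synthase, fell by 1.04 on the log2 scale (adjusted p = 0.00131), and GAL3ST1, the sulfotransferase that turns galactosylceramide into sulfatide, fell by 1.79 (adjusted p = 0.00224). PHYH, which takes part in fatty acid alpha-oxidation, fell by 1.18 (adjusted p = 0.00452, and 0.0526 without LTR5HS Sp replicate 2).

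With CRISPRi, SPTLC2 was the only one of the 17 to pass, beside 2.77% of all genes tested, and it fell (log2 -0.63, adjusted p = 0.0242). Its levels were 55.3 and 58.2 CPM against 77.7 to 96.7 CPM. The call was lost without LTR5HS Sp replicate 1 (adjusted p = 0.189), replicate 2 (0.145) or nontarget Sp replicate 2 (0.0916), and with LTR5HS Sa alone as control (0.111). The median of the list with CRISPRi was -0.02. A cluster of 4 guides lay 19.0 kb from the annotated start of SPTLC2. The starts of CERS4, GAL3ST1 and PHYH lay 106, 5944 and 6210 kb from their nearest clusters. Whether distance plays a part in these changes was not tested. UGT8, the transferase that makes galactosylceramide, was tested with both fusions and called with neither (log2 -0.09 and 1.15, adjusted p = 0.901 and 0.110). DESeq2 called UGT8, SGMS2 and SPTLC2 with CRISPRi, 3 in all.

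Genes that act with the neighbours were followed as lists too, and for LDHD other genes named as lactate dehydrogenases. By edgeR 0 of 7 GATOR genes was called with either fusion (median log2 fold change -0.0044 and 0.08). Of all genes tested, 28.0% were called with CRISPRa and 2.77% with CRISPRi. At an unadjusted p under 0.05 there were 2 with CRISPRa and 1 with CRISPRi, and DESeq2 called 1 with each. Of 6 necroptosis genes tested with CRISPRa, 2 rose (median 0.19), beside 15.7% of all genes tested. They were TRADD, an adaptor of the TNF receptor (log2 0.89, adjusted p = 0.00311), and CYLD, a deubiquitinase (log2 0.41, adjusted p = 0.0276). The CYLD call was lost without LTR5HS Sp replicate 1 or 2, LTR5HS Sa replicate 1 or 2, or nontarget Sp replicate 2 (0.142, 0.171, 0.0743, 0.0616 and 0.0564), and with nontarget Sp alone as control (0.111). With CRISPRi edgeR called 0 of 5 (0 at an unadjusted p under 0.05, and 0 by DESeq2), and the median was -0.12.

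Of 8 Fanconi and RPA genes, 3 fell with CRISPRa (median -0.26). Of all genes tested, 12.3% fell with CRISPRa and 2.77% were called with CRISPRi. With CRISPRi edgeR called 0 (1 at an unadjusted p under 0.05, and 0 by DESeq2), and the median was -0.06. FANCA, a subunit of the core complex, fell by 0.59 on the log2 scale (adjusted p = 0.0111), and FANCI and FANCD2, which the complex ubiquitinates, fell by 0.52 and 0.51 (adjusted p = 0.0153 and 0.0168). These 3 calls were lost without LTR5HS Sp replicate 1 (0.119, 0.157 and 0.165), and that of FANCD2 also without replicate 2 (0.0566) and with nontarget Sp alone as control (0.0602). Of 5 other lactate dehydrogenase genes only 2 could be tested, and edgeR called 0 with either fusion (medians -0.09 and -0.07). At an unadjusted p under 0.05 there was 0 with CRISPRa and 1 with CRISPRi, and DESeq2 called 0.

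The 5 genes whose log2 CPM followed that of FA2H most closely over the 12 libraries were MMP24, ECEL1P2, PRDX1, NFKB2 and ITLN2, with Pearson's r of 0.993, 0.985, 0.985, 0.985 and 0.984 among 15144 genes compared. The value is a description, since all genes were measured in the same libraries. Among the neighbours r ran from -0.59 for GLG1 to 0.37 for MLKL. MMP24, a membrane-type matrix metalloproteinase, stood at 220 and 243 CPM with dCas9-VPR recruitment against 11.9 to 19.4 CPM in the controls. With dCas9-KRAB it stood at 4.32 and 2.51 CPM against 34.3 to 43.98 CPM. PRDX1, a peroxiredoxin, stood at 2483 and 2130 CPM against 555 to 585 CPM, and with dCas9-KRAB at 294 and 294 CPM against 815 to 989 CPM.

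NFKB2, a subunit of NF-kB, stood at 504 and 603 CPM with dCas9-VPR recruitment against 42.6 to 58.6 CPM, and at 25.3 and 25.6 CPM with dCas9-KRAB recruitment against 83.4 to 112 CPM. ECEL1P2, a pseudogene that may share reads with related copies, and ITLN2, an intelectin, lay below the 3-count floor in both dCas9-KRAB recruitment libraries. Their levels with dCas9-VPR recruitment were 44.9 and 62.3 CPM and 17.4 and 19.9 CPM, against controls of 0.736 to 1.43 CPM and 0.491 to 0.947 CPM. All 5 had an annotated start within 40 kb of a guide-site cluster, from 3.69 kb for NFKB2 to 36.5 kb for ECEL1P2. Among the 13944 genes tested with both fusions and matched to the annotation, 3.41% did. The 5 genes were chosen for their likeness to FA2H, and the distance of 40 kb was set after the values had been seen. That all 5 lay within it is therefore no test.

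**Figure D5:**
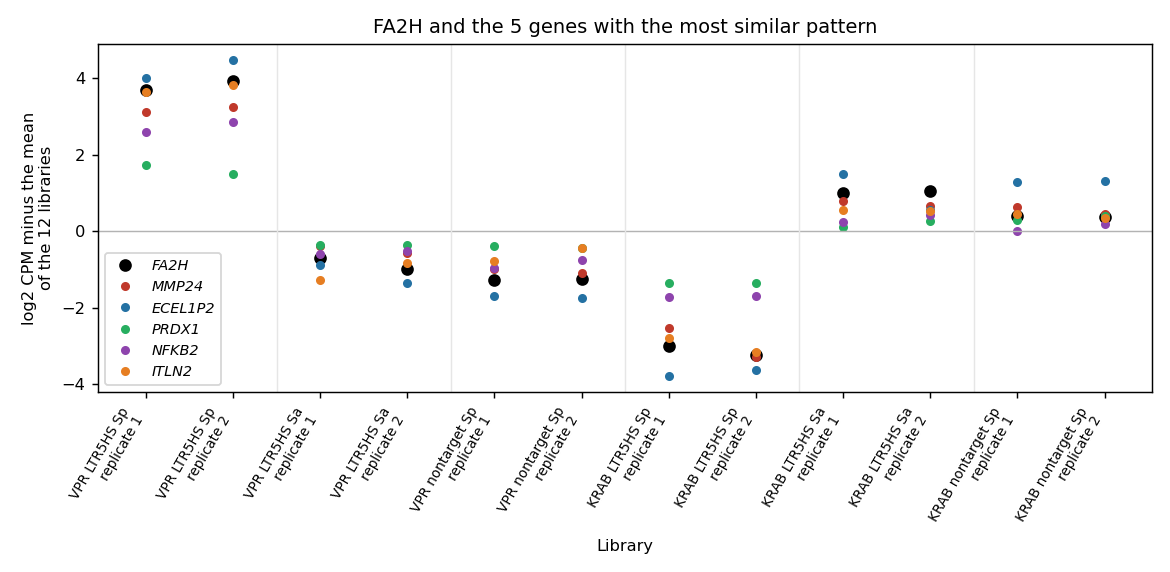
log2 CPM of FA2H and the 5 genes most similar to it in each of the 12 libraries, each gene centred on its own mean. All 6 genes are highest in the dCas9-VPR LTR5HS Sp libraries and lowest in the dCas9-KRAB LTR5HS Sp libraries, with the controls of both fusions between.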

How the data were processed

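Poly(A) RNA of 6 NCCIT lines was sequenced in 2 libraries per line, which the labels call independent biological replicates. The preparation, with random priming and ordinary second-strand synthesis, does not mark strand. The submitters' processing notes name CASAVA 1.8, cutadapt 1.8.1, HISAT2 2.1.0, featureCounts 1.4.6-p2 and build hg38. The authors deposited unnormalized read counts for each gene beside gene lengths. Neither the annotation used for counting nor its strand setting is given in the sources used here. All 12 count columns were used.

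Tests used R 4.3.3 with edgeR 4.0.16 (filterByExpr, TMM, quasi-likelihood F-test, Benjamini-Hochberg over all genes tested, threshold 0.05). Recruitment was compared with control within each fusion, and all 12 libraries entered the interaction and control tests. The test itself gives no standard error. Each SE was derived from the log2 fold change and the F statistic, and each interval from that SE and a t quantile, so both are approximate. The pipeline was tested on simulated counts with the same spread setting for all genes and no effect shared by replicate number. The simulation therefore does not cover such an effect. Alternatives were DESeq2 1.42.0, its size factors, dropping the filter, requiring 10 counts throughout, blocking on replicate number, each control array alone, fitting all 12 libraries together, a 0.01 threshold, omitting each library and, added after the data were seen, thinning the deepest. Correlations used log2 CPM with a prior count of 2. Floors cover counting error only. Guide sites, positions and figures used Python 3.11.15 with pandas 2.3.3, NumPy 2.4.6 and matplotlib 3.10.9.

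The genes named are the 7, up to 4 called genes per list and fusion by smallest adjusted p, and the 5 genes most correlated with FA2H. UGT8, SGMS2, NANOG, TDGF1 and HAND1 were named after their values had been seen. The members and lists were chosen with earlier results of these data known. Guide sequences come from the study's designs and promoters from RefSeq (GRCh38.p14, 6 of 7 genes matched). Other data of the study were not analysed here.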

Additional observations from a re-analysis of the deposited data

Results flagged for a closer look

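The effect of recruitment on FA2H differed between CRISPRa and CRISPRi by 8.76 on the log2 scale (edgeR interaction, adjusted p = 7.27e-09), with all recruitment libraries above the controls for dCas9-VPR and below them for dCas9-KRAB. The other 6 of the 7 interactions tested did not pass the threshold. No library stood apart by Dixon's criterion in the 14 groups of 4 control libraries examined. Each group pooled both control arrays, so a difference between the arrays can keep a library from standing apart.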

How the results depend on the processing

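The FA2H calls held in 15 of 15 alternatives with CRISPRa (4.64 to 5.11) and 16 of 16 with CRISPRi (-4.20 to -3.56). The interaction held in 16 of 16 (8.64 to 8.90). The number of the 7 genes called with CRISPRa was 1 except with LTR5HS Sa alone as control, where it was 2. Without each library in turn it was 1 with CRISPRa, CRISPRi and the interaction, 0 to 1 between dCas9-KRAB control arrays, and 4 to 5 between control lines. DESeq2's size factors gave 0 between dCas9-KRAB control arrays. Where an uncalled value turned its sign, it stayed uncalled. These were MLKL with CRISPRa (-0.046 with nontarget Sp alone as control, -0.062 to 0.19 without each library), and with CRISPRi GLG1 (-0.034) and LDHD (-0.20) with LTR5HS Sa alone, and ZNRF1 (0.17) with nontarget Sp alone. Without each library in turn, the ranges were -0.13 to 0.0017 for WDR59 with CRISPRa, -0.22 to 0.15 for ZNRF1 and -0.20 to 0.32 for LDHD with CRISPRi, and -0.051 to 0.19 for the interaction of WDR59. Between dCas9-VPR control arrays they were -0.61 to 0.039 for MLKL, -0.031 to 0.076 for WDR59, -0.11 to 0.18 for LDHD, -0.011 to 0.16 for RFWD3 and -0.0071 to 0.29 for ZNRF1. Between dCas9-KRAB control arrays they were -0.041 to 0.12 for RFWD3 and -0.45 to 0.15 for MLKL. The cause was not tested. With up to 1 mismatch, 7 guides matched next to FA2H, at the same 6 positions.

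The labels do not say what libraries with the same replicate number share. Deviations of same-numbered libraries correlated at 0.181 to 0.375 within a fusion and at 0.0569 to 0.333 between fusions, a hint from the data of a shared effect. With the replicate block FA2H was at 4.86 and -3.90, 1 of the 7 was called with CRISPRa, CRISPRi and the interaction, 3 between dCas9-KRAB control arrays (FA2H, ZNRF1, LDHD) and 7 between control lines.

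Over all genes, CRISPRa gave 4548 calls, against 2517 at a threshold of 0.01, and 2312 and 2299 without LTR5HS Sp replicate 1 and 2. CRISPRi gave 430, against 236 at 0.01, 696 with DESeq2, and 234, 214 and 285 without LTR5HS Sp replicate 1, replicate 2 and nontarget Sp replicate 2. The dCas9-KRAB control arrays gave 102, from 37 to 131 without each library, 263 with no filter and 785 with the block. The dCas9-VPR control arrays gave 874, from 234 to 949, and 2269 with the block. MLKL, at 10 to 91 counts, and recruitment groups of 2 libraries limit the precision.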
